A study of Homo sapiens with 2 samples.

Results

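The human claudins CLDN1, CLDN2, CLDN3, CLDN4, CLDN6, CLDN7, CLDN9, CLDN12, CLDN14 and CLDN15 were followed on the 2 microarrays of the series, 1 of HepG2 cells treated with dimethyl sulfoxide (DMSO) and 1 of HepG2 cells treated with hawk tea extract (HTE) for 24 h. They are 10 of the 24 claudin genes with a probe on the array, and of 20490 named genes with a probe. The family was chosen on the measured values of these same arrays, by the large HTE over DMSO ratio of CLDN6, so the ratios are given as a description. Probes were assigned by the RefSeq transcript that each one targets. The 10 genes had 13 probes of 1 spot each, and CLDN7, CLDN9 and CLDN12 had 2 probes.

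HepG2 is an established line from a human liver tumour and was the only cell line on these arrays. HTE is an extract of hawk tea, a drink prepared from the plant Litsea coreana, and DMSO is its solvent. The sample labels give an HTE dose of 200 μg mL−1, whereas the name under which the HTE array was deposited carries 300, the dose that the published account of these arrays also gives. The sources thus differ on the dose. There was 1 array per condition, and array, culture and treatment cannot be told apart. No test between the conditions was therefore possible and no p value is given.

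Claudins are small membrane proteins that span the membrane 4 times and join neighbouring epithelial cells in the tight junction. Some seal the space between cells, and others form pores for ions or water. In the liver, tight junctions between hepatocytes close off the bile canaliculus from the blood side. CLDN6 and CLDN9 are close relatives, and CLDN6 is known as an oncofetal gene, expressed in embryonic epithelia and in some tumours.

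The promoters of the 3 claudins with the highest ratios are shown first, and that of CLDN7, not well above background on either array, is shown beside them. The sequences are those of RefSeq on GRCh38.p14, from 250 bases before the transcription start to 50 bases after it, on the strand of the gene. CLDN6 lies at chr16:3018134-3018433 on the minus strand, CLDN3 at chr7:73770221-73770520 on the minus strand, CLDN4 at chr7:73830746-73831045 on the plus strand, and the CLDN7 start shown at chr17:7262429-7262728 on the minus strand. Capitals mark the cAMP response element TGACGTCA and the GC box GGGCGG, each on either strand.
CLDN6: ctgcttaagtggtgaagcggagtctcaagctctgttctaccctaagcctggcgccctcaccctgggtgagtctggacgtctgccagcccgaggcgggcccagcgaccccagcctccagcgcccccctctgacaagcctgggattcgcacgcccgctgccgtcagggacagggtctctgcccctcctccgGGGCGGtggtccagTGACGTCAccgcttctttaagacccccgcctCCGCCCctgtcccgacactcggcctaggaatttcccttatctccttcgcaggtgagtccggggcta
CLDN3: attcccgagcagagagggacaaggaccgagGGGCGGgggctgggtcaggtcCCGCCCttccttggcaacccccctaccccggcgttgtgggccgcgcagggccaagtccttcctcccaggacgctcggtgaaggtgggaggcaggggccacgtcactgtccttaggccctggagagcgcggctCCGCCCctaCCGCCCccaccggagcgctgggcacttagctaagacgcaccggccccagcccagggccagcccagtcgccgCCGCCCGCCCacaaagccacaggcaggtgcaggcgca
CLDN4: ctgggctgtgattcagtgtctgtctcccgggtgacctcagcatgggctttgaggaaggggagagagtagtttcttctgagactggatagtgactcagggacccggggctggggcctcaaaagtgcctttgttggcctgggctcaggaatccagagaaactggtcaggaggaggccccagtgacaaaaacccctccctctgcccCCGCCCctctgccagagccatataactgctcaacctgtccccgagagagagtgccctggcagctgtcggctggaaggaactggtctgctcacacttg
CLDN7: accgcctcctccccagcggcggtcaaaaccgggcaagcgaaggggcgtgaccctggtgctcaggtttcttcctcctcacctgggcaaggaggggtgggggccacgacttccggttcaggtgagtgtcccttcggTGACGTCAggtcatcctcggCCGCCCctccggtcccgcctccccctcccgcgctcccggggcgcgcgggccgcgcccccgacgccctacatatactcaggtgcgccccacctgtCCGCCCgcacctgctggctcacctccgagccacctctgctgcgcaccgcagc

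The CLDN6 promoter held 1 cAMP response element, which begins 47 bases before the start, and 2 GC boxes. The CLDN3 promoter held 6 GC boxes, of which 2 overlap, and the CLDN4 promoter 1, and neither held the cAMP response element. Of 13 promoter windows for 9 of the 10 genes, 2 held the element, that of CLDN6 and that of CLDN7 shown here. Among 35116 human promoters of the same length, 1.85% held TGACGTCA and 45.0% held GGGCGG. The aryl hydrocarbon receptor core GCGTG, the E-box CACGTG and the TATA box TATAAA, present in 36.5% and 7.26% of all promoters and, for TATAAA, in 4049 of them, were also searched on both strands. The CLDN6 window held 1 GCGTG, and TATAAA was in 0 of the 13 windows. The motifs were chosen after the CLDN6 sequence had been seen. A match is a run of letters in this window and not evidence of binding. CLDN7, whose other window did not hold the cAMP response element, was not well above background and gave no ratio. Whether the element has a part in the ratios was not tested.

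On the arrays, CLDN6 was far higher in the HTE-treated cells. Its processed signal, the background-subtracted brightness of the spot, was 344 ± 36.9 on the DMSO array and 2390 ± 240 on the HTE array, where ± is the error that the scanner software gives for the spot. After the 75th percentile of each array had been subtracted on the log2 scale, the levels were -3.55 and -0.58, a log2 ratio of 2.97 with a software error of 0.21, or 7.82-fold. Without any scaling the signals differed 6.95-fold. The difference was larger than the software errors, and the spread between cultures is unknown.

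The local background of the CLDN6 spot was alike on the arrays. The unprocessed median signal of the spot was 450 on the DMSO array and 2591 on the HTE array, and the local background was 38 and 35. The 57 spots around it, within 5 rows and columns and well above background on both arrays, had a median log2 ratio of -0.07. CLDN6 had a single probe, whose sequence is not used here, so binding of a related transcript to it was not tested. Ordered from the highest ratio, CLDN6 had rank 8 of 14636 named genes whose signals passed on each array.

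**Figure D1:**
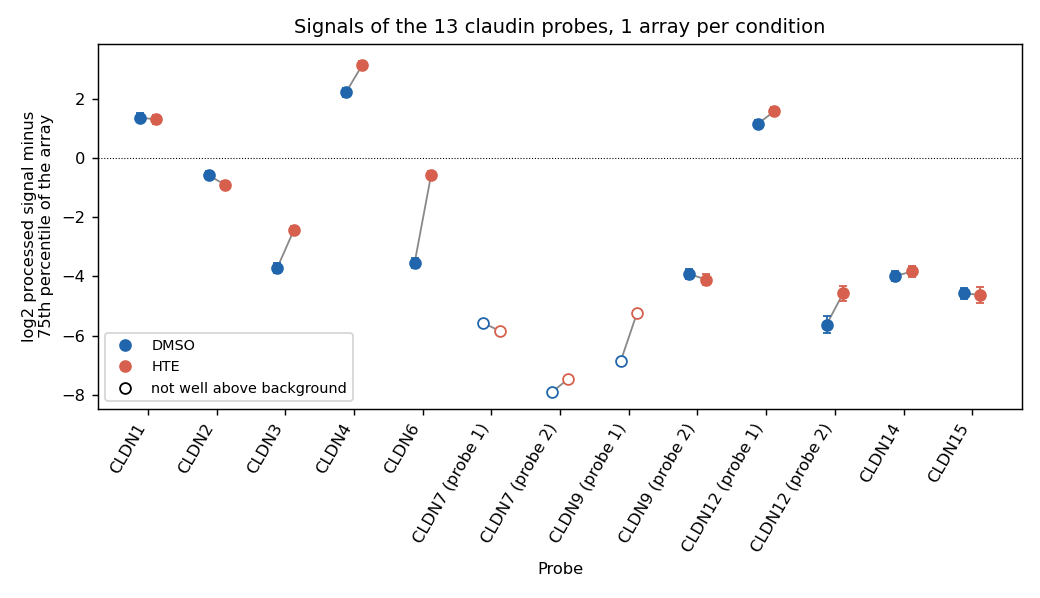
Scaled signal of each of the 13 claudin probes (log2 processed signal minus the 75th percentile of the array) on the DMSO array and on the HTE array, with bars for the error of the scanner software and open circles for signals not well above background. The step of CLDN6 from -3.55 to -0.58 is the longest, and heights of different probes are not comparable.

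CLDN3 and CLDN4, both found in many epithelia and both receptors of a bacterial enterotoxin, were the next highest in ratio. The processed signal of CLDN3 was 307 ± 35.0 in DMSO-treated cells and 656 ± 70.1 in HTE-treated cells, a log2 ratio of 1.27 ± 0.23 (software error). CLDN4 had the signals 18693 ± 1869 and 31699 ± 3170, a log2 ratio of 0.93 ± 0.20. It thus fell just short of the 2-fold cutoff, a log2 ratio of 1, and CLDN3 lay just past it.

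Scaling to the spike-in RNA lowered the ratios of all genes together, to a median of -1.20. It gave log2 ratios of 0.06 for CLDN3, -0.28 for CLDN4, which changed sign relative to 0, and 1.76 for CLDN6. CLDN3 and CLDN4 are neighbours on chromosome 7, and CLDN12 and CLDN15 lie on the same chromosome.

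CLDN12, a claudin linked to calcium transport, had 2 probes that were well above background on both arrays. The brighter one read 8969 ± 897 in DMSO-treated and 10707 ± 1071 in HTE-treated cells, a log2 ratio of 0.43 ± 0.20. The dimmer one read 81.5 ± 16.9 and 150 ± 26.2, with a log2 ratio of 1.05 ± 0.39. The probes thus fell on opposite sides of the 2-fold cutoff, and with spike-in scaling the brighter one had a log2 ratio of -0.78.

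The sealing claudin CLDN1, which also serves as an entry factor of hepatitis C virus in hepatocytes, read 10332 ± 1033 in DMSO-treated cells and 8852 ± 885 in HTE-treated cells. Its log2 ratio was -0.05 ± 0.20, so the signals were within their errors after scaling. CLDN2, a pore for cations and water, read 2692 ± 270 and 1908 ± 192, with a log2 ratio of -0.33 ± 0.20. This was the lowest ratio among the 9 genes measured.

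CLDN14, which is needed in the inner ear and lowers cation permeability, read 253 ± 29.0 in DMSO-treated and 251 ± 32.3 in HTE-treated cells, a log2 ratio of 0.16 ± 0.25. The cation pore CLDN15 of the intestine read 169 ± 22.6 and 145 ± 26.1, a log2 ratio of -0.05 ± 0.32. Both differed by less than their software errors.

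CLDN9, the relative of CLDN6 and its neighbour on chromosome 16, is described from its brighter probe. This probe read 267 ± 30.1 on the DMSO array and 208 ± 28.9 on the HTE array, a log2 ratio of -0.19 ± 0.26. The other CLDN9 probe read 34.3 ± 14.2 and 95.2 ± 22.1 and stayed near background on both arrays, so no ratio was taken from it. CLDN7, which binds EPCAM in many epithelia, was likewise not well above background at either probe, with 84.6 ± 19.5 and 62.3 ± 23.2 at one probe and 16.8 ± 14.3 and 20.3 ± 20.3 at the other.

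In total, 9 of the 10 genes passed the filter on dim probes, all of them on both arrays. Of these, 2 (CLDN6 and CLDN3) were at least 2-fold higher after HTE, where 5.25% of all 23752 genes and unnamed transcripts that passed were, and 0 were at least 2-fold lower, against 3.03% of all. Since CLDN6 was picked for its ratio, nothing is read from this count. The 9 ratios had a median of 0.16 on the log2 scale, against 0 over all features, with 5 above 0 and 4 below it, and 6 of the 9 genes changed by less than 1.5-fold.

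Sorted by log2 ratio, the genes ran CLDN6, CLDN3, CLDN4, CLDN12, CLDN14, CLDN15, CLDN1, CLDN9 and CLDN2. The gap between CLDN6 and CLDN3 was 1.70 ± 0.31 (software error). Nothing is read from its size, as CLDN6 was picked for its ratio. Each of the other 7 gaps between neighbours in this order was at most 1.75 times its error, so adjacent genes below CLDN6 are loosely ordered. Gaps between genes further apart in the order were not calculated. The errors cover the spots and not the spread between cultures.

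**Figure D2:**
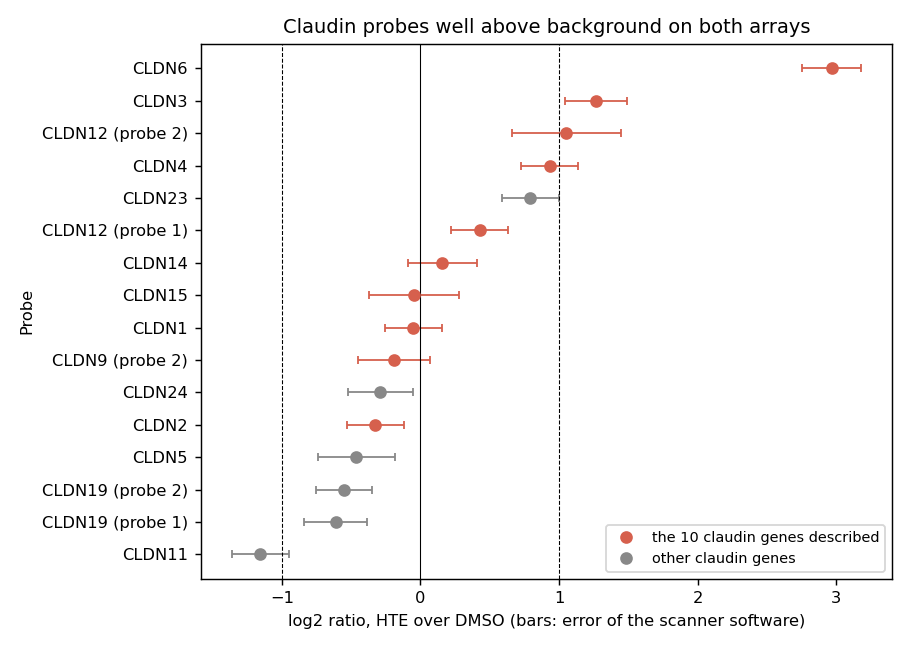
Log2 ratio of HTE over DMSO for each claudin probe well above background on both arrays, with bars for the error of the scanner software propagated to the ratio and dashed lines at 2-fold. CLDN6 (2.97), picked for its ratio, lies above CLDN3 (1.27), and CLDN11 (-1.16), which is not one of the 10 genes, is the lowest.

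The remaining 14 claudin genes were read from 15 probes for comparison. Of these genes, 5 were well above background on both arrays, and 1 of them changed at least 2-fold. Of all features that passed, 5.25% were at least 2-fold higher and 3.03% at least 2-fold lower, and nothing is read from 1 gene. CLDN11, known from myelin and from the testis, read 8340 ± 834 in DMSO-treated and 3323 ± 333 in HTE-treated cells, a log2 ratio of -1.16 ± 0.20. CLDN23 read 1185 ± 119 and 1821 ± 183, a log2 ratio of 0.79 ± 0.21.

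CLDN19, a partner of CLDN16 in the kidney, was lower at both probes, with log2 ratios of -0.55 ± 0.20 and -0.61 ± 0.23. The spots around the brighter CLDN19 probe had a median log2 ratio of 0.41, in contrast to the range of -0.07 to 0.12 around the probes of the 10 genes, and the part of position in that value was not tested. CLDN5, the main claudin of endothelium, had a log2 ratio of -0.46 ± 0.28, and CLDN24 one of -0.29 ± 0.24. CLDN10 passed on the DMSO array only (87.8 ± 17.2), and its bound allowed no fold. The other 8 genes were well above background on neither array, with signals from 13.5 to 39.7 on the DMSO array and from 18.8 to 51.6 on the HTE array.

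**Figure D3:**
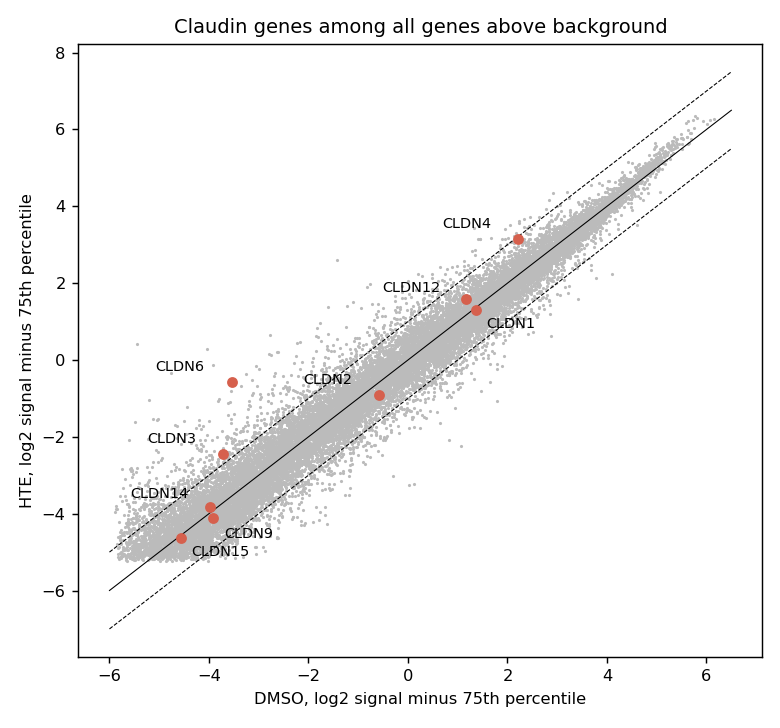
Scaled log2 signal on the DMSO array (x axis) against that on the HTE array (y axis) for genes and unnamed transcripts well above background on both arrays (grey), with the 9 measured claudins in red, the line of equality and dashed lines at 2-fold. CLDN6 lies far above the upper 2-fold line, CLDN3 just above it and CLDN4 just below it.

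The genes whose 2 signals were most like those of CLDN6 were found as those nearest to it in the plane of the 2 scaled log2 signals, a measure of likeness that rests on 2 arrays. It sets signals of different probes side by side and uses the values for which CLDN6 was chosen, so the list is a description, and ratios near that of CLDN6 follow from the way it was made. The nearest was LURAP1L, with levels of -3.54 and -0.49 and a log2 ratio of 3.04, at a distance of 0.09. It was followed by FUT1, a fucosyltransferase (log2 ratio of 2.66), VLDLR-AS1 (2.75), the MAPK phosphatase gene DUSP8 (2.89) and LINC00511 (2.61), at distances of 0.23 to 0.41.

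The chromosomal neighbours of CLDN6 had ratios on both sides of 0. Next to CLDN6, on the side away from CLDN9, lies TNFRSF12A, the gene of the TWEAK receptor, which had a log2 ratio of 1.43. The following genes HCFC1R1 (-0.15) and THOC6 (-0.03) were close to 0. On the side of CLDN9, PKMYT1, the gene of a kinase that holds back entry into mitosis, had -0.60, PAQR4 had -0.83 and KREMEN2 had 0.16. TNFRSF12A was thus the 1 gene past 2-fold among these 7 neighbours, CLDN9 included. Of all features that passed, 5.25% were at least 2-fold higher and 3.03% at least 2-fold lower, and nothing is read from 1 gene.

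The neighbours of CLDN3 and CLDN4 on chromosome 7, chosen after the values were seen, were ABHD11 (0.20), STX1A (0.26) and BUD23 (0.20) on one side, and METTL27 (0.94), TMEM270 (not well above background) and ELN (-0.55) on the other. The ratio of METTL27, next to CLDN4, was close to that of CLDN4 (0.93).

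The other membrane proteins of the tight junction were read as a list of 14 genes, of which 12 passed the filter. Occludin (OCLN), which seals the junction together with claudins, had the highest ratio and was the only 1 past 2-fold. Its log2 ratio was 1.30 at the brighter probe and 1.12 at the other. Of all features that passed, 5.25% were at least 2-fold higher and 3.03% at least 2-fold lower. The virus receptor CXADR had 0.76 at one probe and 0.05 at the other. JAM3, a junctional adhesion molecule, had the lowest ratio (-0.82), and MARVELD2 (tricellulin), which closes the corners where 3 cells meet, had -0.40. The median of the list was 0.26, with 9 genes above 0 and 2 below.

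Of the scaffold and polarity proteins that lie beneath the tight junction, 20 of 21 genes passed, with a median log2 ratio of 0.06 (13 above 0 and 7 below). MAGI2, a scaffold with several protein-binding domains, was the only 1 past 2-fold (1.41). Its scaled DMSO level was low (-3.94), so signal over background limits its ratio. The shares of all features at least 2-fold higher and lower were 5.25% and 3.03%. TJP1, the gene of the scaffold ZO-1 that binds claudin tails, had 0.16. With spike-in scaling the median of this list was -1.15, against -1.20 for all genes.

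In the list of adherens junctions and desmosomes, all 16 genes passed, and 2 were at least 2-fold higher. These were the desmosomal cadherins DSC2 (log2 ratio of 1.19) and DSG2 (1.04). Of all features that passed, 5.25% were at least 2-fold higher. The scaled DMSO level of DSC2 was low (-3.83), so signal over background limits its ratio. JUP (plakoglobin, 0.88) and CDH1 (E-cadherin, 0.85) lay below the cutoff. PKP4, a plakophilin, had the lowest ratio (-0.83), with -1.26 and -0.88 at its other probes, the former past 2-fold. JUP links cadherins to the cytoskeleton, and the median of the list was 0.12, with 9 genes above 0 and 7 below.

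Among 17 transcription factors that act on epithelial junction genes, 15 passed. ELF3, an ETS factor of epithelia, was 2.83-fold higher, and KLF4 was at least 2.62-fold higher, as its DMSO signal was dim and only the HTE signal passed. OVOL2 (0.77) and KLF5 (0.71) were below the cutoff, as were the repressors SNAI1 (-0.41, the lowest), SNAI2 (-0.17), ZEB1 (-0.11) and ZEB2 (-0.35). TWIST1, also in the list, went the other way, with 0.27 at the brighter probe and 0.45 at the other. TWIST2 passed on the DMSO array only, with a bound of -0.08. The hepatocyte factor HNF4A had 0.13. The median was 0, with 7 genes above 0 and 7 below.

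The partners of claudins and the membrane proteases were read from 13 genes, of which 12 passed. PRSS8 (prostasin), a membrane-anchored serine protease of epithelia, had a log2 ratio of 2.62, or 6.15-fold. SPINT1, which inhibits such proteases, had 2.04, and the tetraspanin CD9 had 1.25. The scaled DMSO level of SPINT1 was low (-5.29, against -3.55 for CLDN6), so signal over background limits its ratio too. ST14 (matriptase), the protease that acts with prostasin, had -0.03. EPCAM, a binding partner of CLDN7, had 0.34, and CD81 and SCARB1, which act with CLDN1 in hepatitis C virus entry, had 0.63 and -0.10. LNX1, a ubiquitin ligase that binds claudins, was the lowest (-0.87). The median of the list was 0.34, with 8 genes above 0 and 4 below.

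Together these 5 lists held 81 genes, of which 75 passed, 9 were at least 2-fold higher and 0 at least 2-fold lower, against 5.25% and 3.03% of all features that passed. The 9 include KLF4, which passed through the HTE array only, where it was higher. The shares of all features include such bounds too. Over all features that passed, 45.7% had a ratio above 0 and 49.0% below it. The lists were chosen with earlier results of these arrays known and with 1 array per condition, so the counts describe these 2 arrays only.

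**Figure D4:**
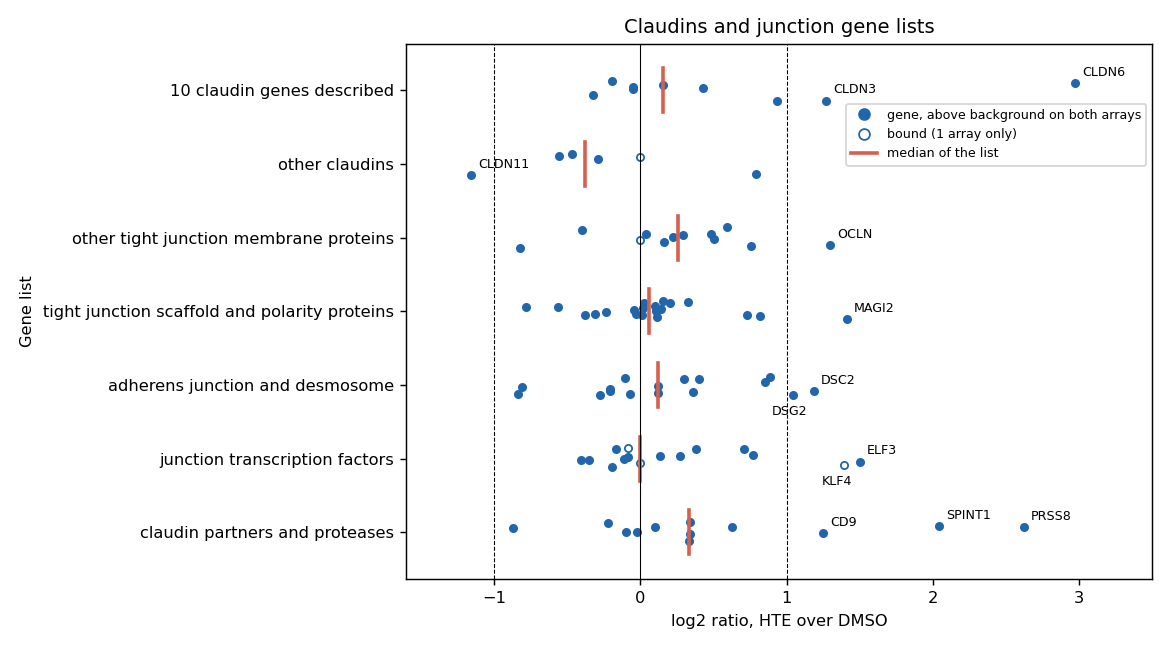
Log2 ratio of HTE over DMSO for each gene of the claudin and junction lists that passed the filter on dim probes (filled circles for genes above background on both arrays, open circles for bounds), with red bars for list medians and dashed lines at 2-fold. PRSS8 (2.62) and SPINT1 (2.04, from a low DMSO signal) come nearest to CLDN6 (2.97), and CLDN11 (-1.16) is the only gene past 2-fold on the low side.

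Markers checked the label of the cells. All 9 hepatocyte markers were well above background on both arrays, with log2 ratios from -0.36 (FGB) to 0.32 (AHSG). Of 7 cholangiocyte markers, 6 passed, from -0.31 (KRT7) to 0.36 (KRT19). Of 7 markers of pluripotent and germ cells, which can also express CLDN6, 4 passed, from -0.83 (CRIPTO) to 0.42 (NANOG), and LIN28A was not well above background. Of 5 fibroblast markers, 2 passed, with COL1A1 at -0.63 and COL3A1 past the filter in DMSO-treated cells only. Of 5 leukocyte markers, 3 passed, with CD14 the lowest at -1.77, while CD3E was not well above background. No marker list had a gene at least 2-fold higher, and the part of other cell types in the claudin ratios was not tested.

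**Figure D5:**
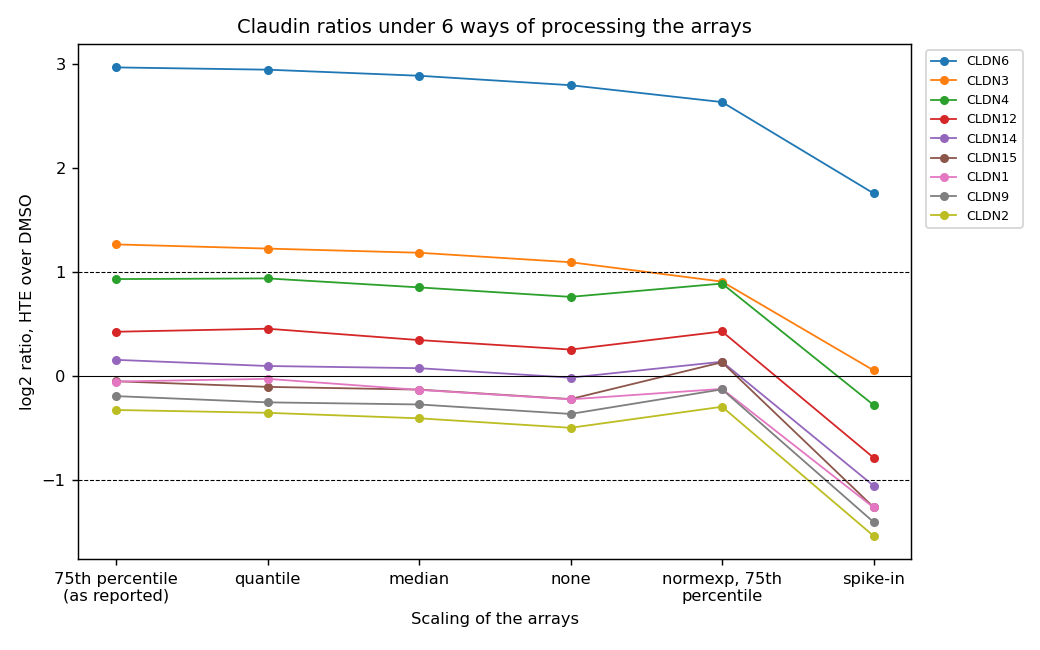
Log2 ratio of HTE over DMSO for the 9 measured claudins (coloured lines) under the scaling used here and 5 other ways of processing the arrays, with dashed lines at 2-fold. CLDN6 is above 2-fold in each, from 1.76 to 2.97, whereas CLDN3 drops below 2-fold with normexp background correction (0.91) and spike-in scaling (0.06).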

How the data were processed

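The authors hybridised Cy3-labelled material made from total RNA of each condition to a 1-colour Agilent human gene expression array and deposited the Feature Extraction output (version 11.5.1.1 per the file headers, 10.7 per the labels). The deposited intensity values are processed signals, which that software had background-subtracted and detrended, and they were not scaled between the arrays. The study's methods name a 2-fold cutoff.

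Here control and outlier spots were left out, and signals were put on the log2 scale relative to each array's 75th percentile over non-control spots (4020 on the DMSO and 3570 on the HTE array before taking logs). A probe passed when the software flagged a share of 0.5 or more of its spots as well above background on 1 array or both, and a probe dim on 1 array entered as a bound. A gene was read from its brightest probe. Probes were named through RefSeq accessions of a GRCh38.p14 gene table, through which 28174 of 50532 probes had a name. The arrays were designed on another build, so gene coordinates are not given except for RefSeq promoters. Of 58717 non-control spots, 60.6% (DMSO) and 56.6% (HTE) were well above background and 0 were saturated.

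The error given is that of the software per spot. Log2 ratios had a median SD of 0.05 among replicate spots (688 probes) and 0.16 among probes of a gene (3759 genes). A value was taken as moved by an alternative when it shifted by more than the latter. The members and 11 gene lists were chosen with earlier results of these data known. Named were all claudins, the highest and lowest gene of each list and those past 2-fold, the 5 genes nearest to CLDN6 and the 3 neighbours on each side of CLDN6 and CLDN9, and further list genes were named after their values were seen. Some genes that this rule names are not reported here. Alternatives were other scalings, normexp background correction (offset 50, run on median signals), other filters, probe rules and cutoffs. The steps were tested on simulated data. Software was Python 3.11.15 (matplotlib 3.10.9, pandas 2.3.3, numpy 2.4.6) and, for normexp, limma 3.58.1 in R 4.3.3.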

Additional observations from a re-analysis of the deposited data

How the results depend on the processing

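CLDN6 had the highest ratio of the 9 measured genes among the 10 claudins described under all 10 alternatives run on it. Its ratio stayed past 2-fold, at 2.80 without scaling, 2.63 with normexp background correction and 1.76 with spike-in scaling. CLDN6 was picked for its ratio, so nothing is read from its rank. Its single probe was well above background on both arrays and not an outlier, so other filters and probe rules could not change its value. Scaling by 1 value per array could not change its rank. Of the 10 claudins described, the number past the cutoff on the high side was 1 (CLDN6) instead of 2 with a 3-fold cutoff, with normexp and with spike-in scaling. It was 3 with a 1.5-fold cutoff, and with each probe counted on its own 3 probes were past 2-fold. The number at least 2-fold lower was 5 instead of 0 with spike-in scaling. Of all 23752 features, 825 were at least 2-fold higher with normexp. With spike-in scaling 144 of them were at least 2-fold higher and 15983 at least 2-fold lower, so nothing is read from these claudin counts. No paired analysis was possible because each condition has a single array. With spike-in scaling the median of all genes was -1.20. The counts, signs and medians given for that scaling are relative to 0 and have to be set against this median. That scaling gave medians of -1.05 for the 10 claudins, -1.59 for other claudins, -0.87 for other tight junction membrane proteins, -1.15 for scaffolds, -1.09 for adherens junctions and desmosomes, -1.08 for transcription factors, -0.87 for partners and proteases, -1.09 for hepatocyte, -1.15 for cholangiocyte, -1.19 for pluripotent, -1.49 for fibroblast and -1.07 for leukocyte markers.

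With no scaling, all genes had a median of -0.16, and the list medians were -0.0146 for the 10 claudins, -0.55 for other claudins, 0.0868 for other tight junction membrane proteins, -0.11 for scaffolds, -0.0508 for adherens junctions and desmosomes, 0.16 for partners and proteases, -0.0469 for hepatocyte, -0.15 for pluripotent and -0.0337 for leukocyte markers. Without a filter on dim probes they were 0.59 for other claudins, 0.42 for pluripotent and 0 for fibroblast markers. Fibroblast markers had -0.63 with genes above background on both arrays and -0.87 with the own signal of dim probes, hepatocyte markers -0.0661 with quantile normalization, and leukocyte markers -0.37 with the mean over all probes. Higher genes were 63.4% of all genes past 2-fold, 42.2% without scaling, 50.4% with the own signal of dim probes and 0.893% with spike-in scaling. The cause of these shifts was not tested. Signal over background limits the dim claudins CLDN7, CLDN9, CLDN14 and CLDN15, and also CLDN6 and CLDN3, which were dim on the DMSO array and whose ratios moved with normexp (CLDN3 to 0.91).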
